A study of Marchantia polymorpha with 6 samples.

Results

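The genes described here are those annotated on V, the male sex chromosome of the liverwort Marchantia polymorpha, apart from 10 very long ones. They were taken as every gene placed on V in the gene annotation, leaving out MpVg00525, MpVg00615, MpVg01095, MpVg00105, MpVg00785, MpVg00928, MpVg00045, MpVg00985, MpVg00410 and MpVg00265. This gave 136 of the 146 genes of V and of the 19441 genes in the annotation. The 10 genes left out are those with most transposable element sequence in their introns, from 29.9 kb in MpVg00265 to 248 kb in MpVg00525. Just inside this limit lay MpVg00310 with 24.2 kb, MpVg00160 with 24.1 kb and MpVg00710 with 20.2 kb. The choice thus removed the upper end of intron length and of intronic elements on V, and values over all genes of V are given beside both measures.

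In liverworts the sex is set in the haploid plant, which forms the thallus. A male carries a V and a female carries a U, and the V passes from male to male without crossing over with the U along most of its length. Sex chromosomes of this kind are known for genes needed in sperm formation, for genes that keep a counterpart on the U, and for the build-up of repeated sequence.

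The series set out to compare gene and element expression between wild type and a mutant of MpMET, the enzyme that maintains methylation at CG sites. It comprised 6 poly(A) RNA libraries of thalli of 14 days, 3 from the male wild-type line Tak-1 and 3 from Mpmet-3. Both kinds of plant were grown on agar with half-strength Gamborg B5 medium in continuous white light. The 2 deposited files were annotations of the Tak-1 genome, MpTak1 v5.1 revision 2, with no value for any library, so expression of the V genes was not analysed here and the depth is unknown. All values below describe gene models of 1 genome and none measures an effect of the mutation.

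V was set against the 8 autosomes, with 1 value for each chromosome. An exact 2-sided permutation test over 9 chromosomes cannot give a p below 0.111, so no difference could pass 0.05. In 22 of the 25 planned measures V was higher or lower than every autosome. Of these, 20 had an exact permutation p of 0.111 (adjusted p = 0.139) and 2, the median exonic length and the median number of introns, had 0.222. V also lay higher or lower than every autosome in all 14 measures added later, each at an exact permutation p of 0.111. These 14 were chosen after the models were seen, so their count adds no support. The 83 coding genes of V are few, whereas each autosome holds over 1000 coding genes. Most shares compared between V and the autosomes therefore carry a 95% Wilson interval, and the medians of span, exonic length, coding length and intron length over all introns carry an interval from their order statistics. The other medians and the lesser counts are given without one. These intervals cover counting error only, and genes that overlap each other are not independent. Introns of the same gene are not independent either, so the intervals over introns are likely too narrow.

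The 136 genes fell into 2 kinds that occupied different parts of V. A coding sequence was annotated for 83 genes (61.0%, interval 52.6% to 68.8%), against 94.9% ± 1.26 (SD, n = 8) of the genes on the autosomes, where the lowest share was 92.1% on chromosome 5. The other 53 genes had no coding sequence, were single exons and carried identifiers that end in a letter. Of these, 51 lay beyond the last coding gene, MpVg01240, which ends at 7020380. Up to that point 83 of 85 genes were coding (97.6%). A cut there removes only genes without coding sequence and was not made on the autosomes, so this share cannot be ranked against theirs. The low share of coding genes on V thus came from 1 stretch at its end.

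**Figure D1:**
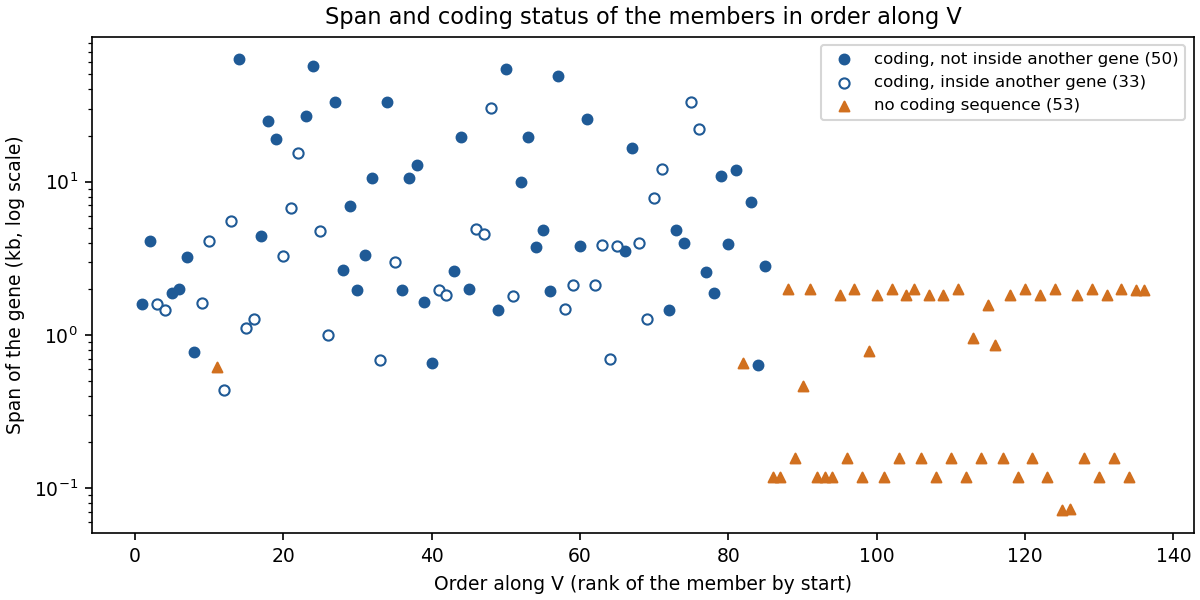
Span of each of the 136 genes (kb, log scale) against its order along V. Filled blue points are the coding genes that do not lie inside another gene (50), open points those that do (33) and orange triangles the genes without coding sequence (53); all but 2 of the triangles stand after the last coding gene, in bands of equal length.

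That stretch ran from 7094455 to 7533257, or 439 kb, 5.82% of V as measured to its last annotated feature at 7.54 Mb. It began 74.1 kb after MpVg01240. Its genes repeated 4 lengths, taken as the commonest length and those up to 4 bp from it. There were 13 genes of 118 or 119 bp, 10 of 158 bp, 9 of 1820 to 1823 bp and 10 of 2007 to 2011 bp, 42 of the 53 genes without coding sequence (79.2%). On the autosomes 92 of 971 such genes (from 2.97% on chromosome 8 to 33.7% on chromosome 1) fell within 4 bp of one of these lengths. On the unplaced sequences 89 of 129 did (69.0%). The lengths were picked from the genes of V themselves, so a high share on V follows from that choice. Of the 971 autosomal genes, 496 were 70 to 75 bp long. Only 2 genes of V had such a length, MpVg01275a with 72 bp and MpVg01275b with 73 bp. The median span of genes without coding sequence was accordingly 619 bp on V, against 81.6 ± 15.2 bp (SD, n = 8). Plant chromosomes carry ribosomal RNA genes in tandem arrays and short transfer RNA genes, and annotations list both without a coding sequence. No source used here says what the V genes encode.

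The 4 lengths mostly followed each other in 1 order and at similar distances. Read in the direction of transcription, a gene of the 1820 bp class was followed by one of the 158 bp class 8 times, at a median distance of 1147.5 bp (1143 to 1511 bp). The 158 bp class was followed by the 2011 bp class 8 times, at a median of 1799 bp (1796 to 2390 bp). The 2011 bp class was followed by the 119 bp class 9 times, at 1918 to 1994 bp. The step from the 119 bp class back to the 1820 bp class occurred 6 times, at 6690 to 6716 bp. Of the 33 steps under 20 kb between neighbouring genes of these classes on the same strand, all but 2 kept this order. From the start of a gene to the next of its class on the same strand there were 19 distances, from 1.96 to 108 kb, of which 10 lay between 15.68 and 15.74 kb. The direction changed along the stretch, which fell into 7 runs of 5, 8, 9, 8, 10, 9 and 2 genes on alternating strands.

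**Figure D2:**
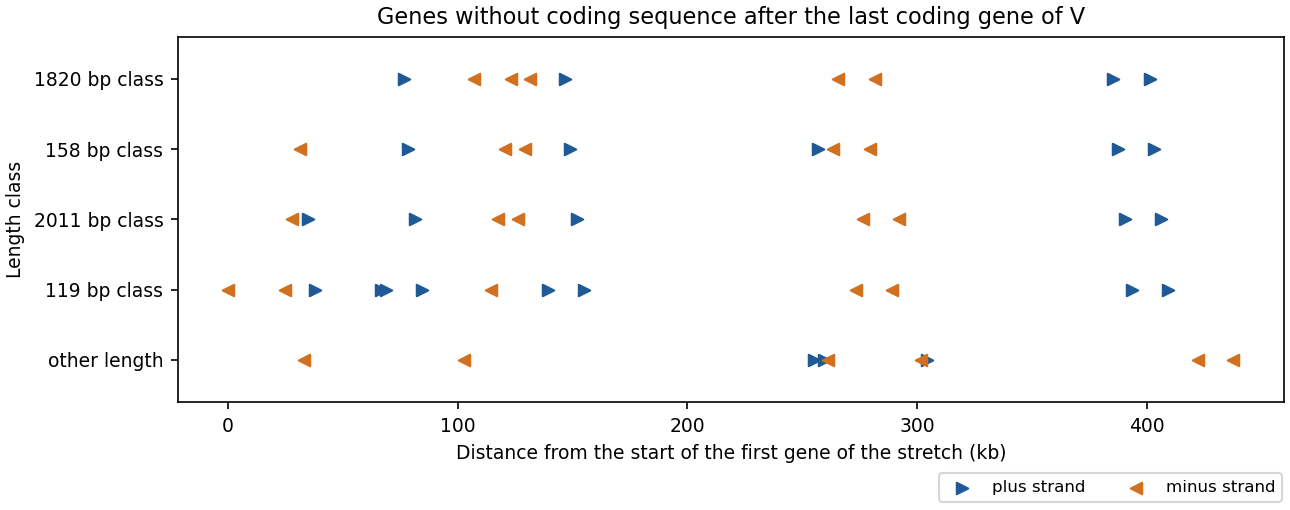
Position of the 51 genes beyond the last coding gene of V, as distance from the start of the first of them (kb), by length class; arrowheads point right for the plus strand and left for the minus strand. All but 2 of the 33 steps between neighbouring genes of the 4 classes on the same strand keep 1 order, and the 7 runs alternate in direction.

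The same steps were annotated elsewhere. Chromosome 1 had 8 steps from the 1820 bp to the 158 bp class, at a median of 1147 bp, and 5 steps from the 158 bp to the 2011 bp class, at a median of 1799 bp. The unplaced sequences had 20 and 10 of these steps, with medians of 1147 and 1799 bp. Chromosomes 5, 7 and 8 had no step of any kind. On V, all 42 genes of the 4 classes overlapped annotated elements, and each class had 1 leading family label. The 158 bp and 2011 bp classes lay in TE_00000015 and the 1820 bp class in TE_00000002, both of unknown class, and the 119 bp class in the inner part of an LTR family, TE_00001002_INT. Over all 53 genes without coding sequence, 49 had at least 50% of their length in elements. The exceptions included MpVg01275a and MpVg01275b, which had no element sequence. The same bases are thus listed both as genes and as elements.

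The coding genes of V had short coding sequences. Their median coding length was 453 bp (interval 369 to 621 bp, n = 83), against 949 ± 51.9 bp (SD, n = 8) on the autosomes, whose lowest median was 906 bp. All 83 coding lengths were whole codons. In 27 of the 83 genes (32.5%, interval 23.4% to 43.2%) the coding length was under 300 bp, against 11.7% ± 1.48 (SD, n = 8), and 24 genes (28.9%) had at least 1000 bp, against 47.5% of the 18134 autosomal coding genes. Among genes of at least 300 bp the median was 841.5 bp on V and 1074 bp on average on the autosomes. The exons as a whole differed less. The median exonic length was 1793 bp (interval 1604 to 1969 bp) against 2033 ± 104 bp, and among genes with a coding length of at least 300 bp it was 2248.5 bp, above the autosomal mean of 2193 bp. Coding sequence made up 43.2% of exonic length on V compared with 53.2% ± 0.580 (SD, n = 8) on autosomes.

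The short coding sequences belonged to small models. The 27 genes under 300 bp had a median span of 1870 bp, at most 3 introns, and 16.4% of their exonic length was coding. Only 1 of them, MpVg00390, had several transcripts. The 24 genes of at least 1000 bp had a median span of 10529 bp, a median of 4 introns and up to 27, and 66.2% of their exonic length was coding. The 5 longest coding sequences were 6894 bp in MpVg00710, 4365 bp in MpVg00320, 4167 bp in MpVg01223, 3165 bp in MpVg00310 and 2979 bp in MpVg00440. MpVg00320 and MpVg01223 consisted almost wholly of element sequence and are described with the elements below. The shortest coding sequence was 114 bp, in MpVg00460, a gene named after its value was seen.

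Coding genes of V had fewer but far longer introns. The mean number of introns was 2.93 per gene, against 4.31 ± 0.413 (SD, n = 8; lowest 3.72 on chromosome 5). With the 10 long genes included the mean was 4.17, within the autosomal range, so the lower number depended on leaving these out. No intron was annotated in 21 of the 83 genes (25.3%, interval 17.2% to 35.6%), within the autosomal range of 19.7% to 26.6%, and a further 21 had 1 intron. At the other end, MpVg00310 had 27 introns, MpVg00440 had 20, MpVg00980 had 15 and MpVg00710 had 13.

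The median intron was 662 bp long on V (interval 486 to 1156 bp, n = 243), against 233 ± 4.88 bp (SD, n = 8), and the highest autosomal median was 244 bp. Over all genes of V it was 1352.5 bp, and 53.9% of the introns were at least 1 kb long. Without the 10 long genes, introns of at least 1 kb were 106 of 243 (43.6%, interval 37.5% to 49.9%), against 4.33% ± 0.308 (SD, n = 8). These 106 introns held 92.7% of the intronic length. At 5 kb or more there were 33 introns on V (13.6%) and 102 among 78617 on the autosomes (0.130%), and at 20 kb or more there were 5 on V and 0 on the autosomes. The lower quartile was 234 bp against 159 bp on the autosomes together, and the upper quartile was 3080.5 bp against 364 bp. The difference was thus larger among the longer introns.

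**Figure D3:**
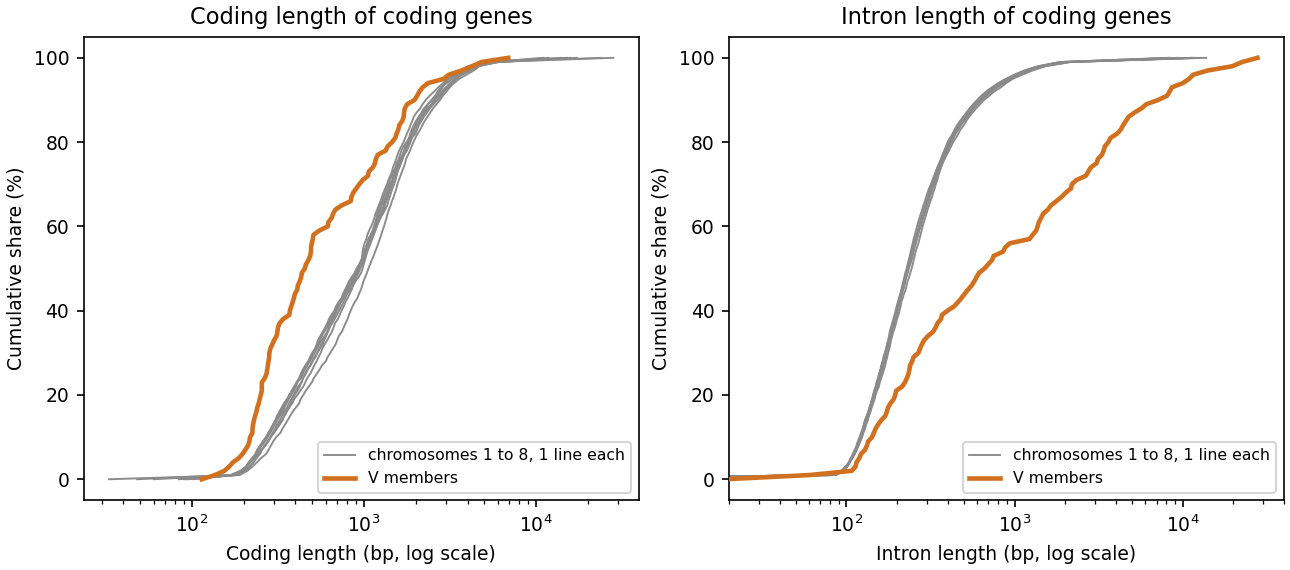
Cumulative share of coding genes by coding length (left) and of their introns by length (right), both in bp on a log scale; the orange line is V without the 10 long genes and each grey line is 1 autosome. The V line lies left of the autosomes for coding length, with a median of 453 bp, and right of them for intron length, with a median of 662 bp.

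The longest introns lay in few genes. MpVg00160 (V, 1090099 to 1152899, minus strand) was 62.8 kb long, of which 1938 bp were exonic, and introns 6 and 5 were 27.9 and 22.0 kb long. MpVg00835 (4701982 to 4751159, minus strand) was 49.2 kb long, of which 1658 bp were exonic, with 2 introns of 23.0 and 24.5 kb. Both introns came after its coding sequence of 492 bp, which lay in 1 exon. The overlapping gene MpVg00880, of 3.81 kb, had the same coding sequence. In MpVg00890 intron 3 was 21.7 kb. MpVg00310 (1537362 to 1594556, plus strand) spanned 57.2 kb and MpVg00710 (4045725 to 4100371, minus strand) 54.6 kb, with longest introns of 11.9 and 9.54 kb. The 10 longest introns held 31.4% of all intronic length. Exons made up 22.0% of the summed span of the coding genes of V, against 61.4% ± 1.55 (SD, n = 8) on the autosomes, and over all genes of V the share was 6.50%. The median span differed less, at 3814 bp (interval 2637 to 4802 bp) against 3027 ± 251 bp.

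The position of long introns differed as well. In plants the intron nearest the start is often the longest. On the autosomes it was the longest in 35.3% ± 1.62 (SD, n = 8) of the coding genes with 3 or more introns. On V this held in 4 of 28 genes (14.3%, interval 5.70% to 31.5%), below the lowest autosome at 33.1%. The 4 genes were MpVg00600, MpVg00680, MpVg01020 and MpVg01223, named after their values were seen. The intron nearest the start had a median of 358 bp on V, and the autosomal medians averaged 321 ± 12.7 bp (SD, n = 8). The other introns had a median of 876 bp on V against 222 ± 3.66 bp. Over all genes of V these medians were 383 and 1578 bp. The excess of length on V was thus smaller in the intron nearest the start than in the others.

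Elements filled part of this length. They were annotated in 82 of the 243 introns (33.7%, interval 28.1% to 39.9%), against 4.69% ± 1.16 (SD, n = 8), and covered 29.6% of the intronic length against 3.83% ± 0.723. Over all genes of V the cover was 43.9%, and outside genes on V it was 73.9%. Introns with no element sequence still had a median of 339 bp on V (n = 161), against 232 ± 4.87 bp on the autosomes. With element sequence subtracted from every intron, the median was 609 bp on V, and on autosomes 229 ± 4.97 bp (SD, n = 8). Each of the 10 longest introns held element sequence, from 16.1% to 83.6% of its length. The longest intron with none was intron 2 of MpVg00400, of 8604 bp. The longest introns of MpVg00980 and MpVg00730, of 5.27 and 3.35 kb, had none either. These 3 genes were named here after their values were seen.

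Several transcripts were more often annotated on V. There were 22 coding genes with 2 or more transcripts (26.5%, interval 18.2% to 36.9%), against 16.5% ± 1.27 (SD, n = 8; highest 19.5% on chromosome 1). The mean was 1.41 transcripts per coding gene against 1.27 ± 0.0220. The 53 genes without coding sequence had 1 transcript each. MpVg00390, MpVg00680, MpVg01080 and MpVg01100 had 4 transcripts, and MpVg00340, MpVg00750, MpVg00970 and MpVg01030 had 3. In 15 of the 22 genes the transcripts differed in their coding parts (68.2%, interval 47.3% to 83.6%), which includes the autosomal mean of 60.5%. In MpVg00160 the coding length was 309 bp in one transcript and 924 bp in the other. In MpVg00710 it was 6558 and 6894 bp. The 4 transcripts of MpVg00390 and of MpVg01080 shared 1 coding sequence and differed outside it.

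Untranslated sequence was annotated for nearly all coding genes. A 5' part was present in 79 of 83 (95.2%, interval 88.3% to 98.1%), which includes the autosomal mean of 90.5%. A 3' part was present in 81 of 83 (97.6%, interval 91.6% to 99.3%), against 91.1% ± 1.07 (SD, n = 8). Introns that interrupt the 5' part, before the coding sequence starts, occurred in 25 genes (30.1%, interval 21.3% to 40.7%), against 19.98% ± 1.45 (SD, n = 8; highest 22.5% on chromosome 8). MpVg00090, MpVg00730 and MpVg01080 had 3 such introns each; the first and second were named after their values were seen.

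Coding genes of V commonly lay inside other genes. Of the 83, 33 (39.8%, interval 29.9% to 50.5%) lay wholly within the span of another gene, against 0.840% ± 0.254 (SD, n = 8) on the autosomes. The 10 long genes held 24 of them and other coding genes described here held 9. Outside the spans of the 10 genes the share was 15.3% of 59 genes. A gene without coding sequence, MpVg00135a, also lay in MpVg00105. Of the 34 nested genes, 20 lay within a single intron of the outer gene, 11 of these on its strand. The outer genes among the 83 were MpVg00160, holding MpVg00170 and MpVg00200, MpVg00310, holding MpVg00320 and MpVg00330, MpVg00440 with MpVg00450, MpVg00710 with MpVg00720, MpVg00835 with MpVg00840 and MpVg00860, and MpVg00890 with MpVg00900. All 9 lay within 1 intron and shared no exonic base with the outer gene.

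The other 14 nested genes shared exonic bases with the long gene around them, 12 of them on the same strand. MpVg01100 shared 1096 of its 1199 exonic bp (91.4%) with MpVg01095, with 6 of its 8 introns identical to introns of that gene. MpVg01110 shared 88.0% of its exonic bp and all 5 introns with the same gene. MpVg01030 shared 82.7% with MpVg00985 and MpVg00290 77.9% with MpVg00265. An identical intron was shared in 10 of the 34 nested pairs, and coding bases in 7. MpVg00835 and MpVg00880, which overlap without nesting, shared 1401 exonic bp and a coding sequence of 492 bp. In all, 16 coding genes (19.3%, interval 12.2% to 29.0%) shared exonic bases with a gene on the same strand, against 3.99% ± 0.669 (SD, n = 8), and 3 with a gene on the other strand (3.61%, interval 1.24% to 10.1%, against 6.19% ± 0.543). Outside the spans of the 10 genes the same-strand share was 6.78% and the other-strand share 1.69%. Over all genes of V the other-strand share was 6.45%, within the autosomal range, so its direction turned. A read from shared bases on the same strand cannot be given to 1 gene by its strand.

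**Figure D4:**
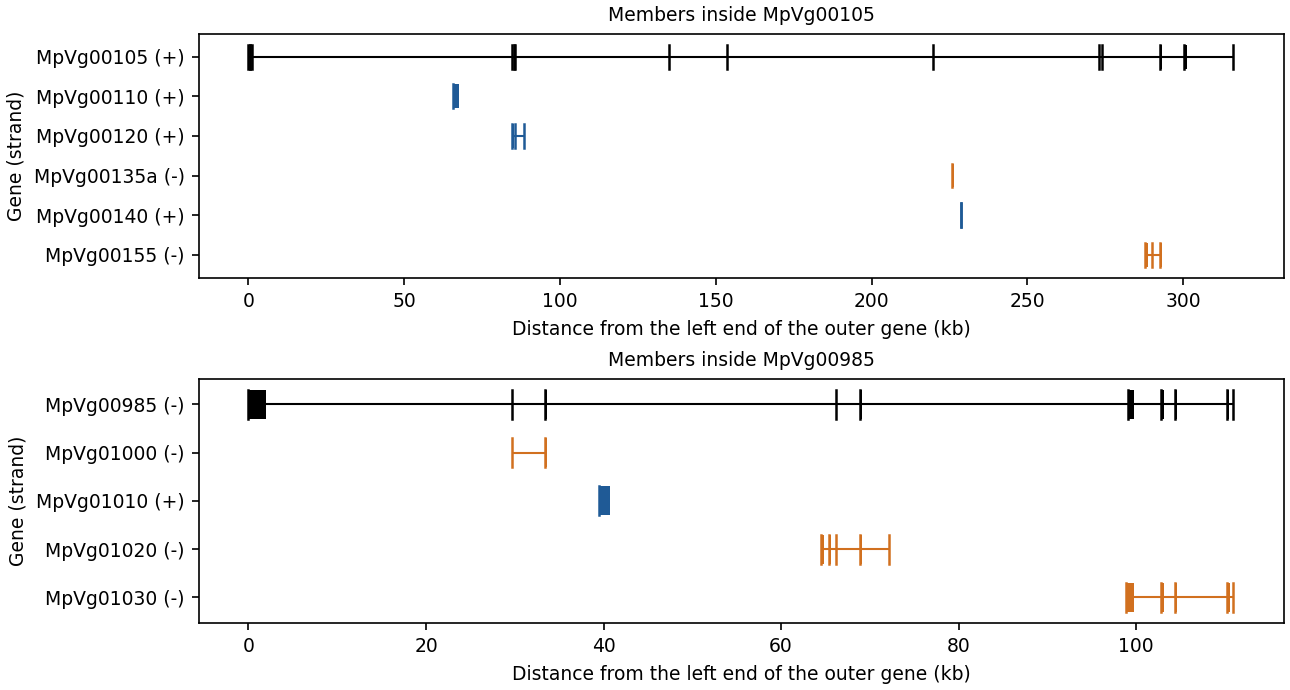
Exons (bars) and introns (lines) of MpVg00105 and MpVg00985, in black, and of the genes inside them, blue on the plus strand and orange on the minus strand, against distance from the left end of the outer gene (kb). MpVg01000, MpVg01020 and MpVg01030 have some or all of their exons at the places of exons of MpVg00985, while MpVg00110, MpVg00135a, MpVg00140 and MpVg01010 lie within introns.

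The identifiers set the V genes apart as well. Those of 74 of the 83 coding genes (89.2%) end in 0, against 18099 of 18134 on the autosomes (99.8%), and 1 of the 10 long genes has such an identifier. No coding gene of V with 3 or more exons (41 genes) had an exon-length twin, a gene elsewhere in the annotation with the same exon lengths in the same order. For the 83 genes this allows a share of up to 4.42% by the Wilson interval. Genes with fewer exons count among the 83 but could have no twin, so the limit for the 41 is higher. The autosomal mean was 0.161%, well below this limit, so the absence of twins does not set V apart.

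Coding genes were sparse and unevenly spread along V. There were 11.0 coding genes per Mb, against 86.9 ± 2.48 (SD, n = 8). Counted by start in steps of 1 Mb, the coding genes numbered 12, 21, 7, 7, 17, 12, 6 and 1, where the last step was shorter. Elements covered 63.7%, 46.9%, 72.3%, 59.9%, 51.9%, 48.5%, 82.97% and 72.6% of these steps. The steps with 21, 17 and 12 coding genes that start at 1, 4 and 5 Mb had the 3 lowest covers, and the one that starts at 6 Mb, with 6 coding genes, had the highest. These are 8 parts of 1 chromosome, so no test was made. The widest gap, of 489 kb, lay between MpVg01195a and MpVg01223, in the step from 6 to 7 Mb, and held no annotated gene. The gap of 284 kb between MpVg00590 and MpVg00600 held none either. Gaps of 448, 397 and 312 kb, from MpVg00620 to MpVg00670, MpVg01110 to MpVg01130 and MpVg00770 to MpVg00830, were taken up wholly or in part by MpVg00615, MpVg01095 and MpVg00785.

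The distance between neighbours depended on which genes were counted. Over all 136 genes the median gap between neighbours that did not overlap was 17.1 kb (17096 bp), against 3993 ± 260 bp (SD, n = 8). The repeated genes at the end stood close together, and up to the last coding gene the median gap was 52189 bp. Over the whole of V with the 10 long genes counted as neighbours, the median gap was 11086 bp. Over pairs with none of the 10 between them it was 7030.5 bp, still above the highest autosome at 4381 bp. Both of these values still include the close gaps of the repeated genes. No setting left out the repeated genes and also took account of the 10 long ones. Some neighbours touched: MpVg00390 ends at 1872389 and MpVg00400 starts at 1872390, on opposite strands and pointing at each other. Overlap of neighbours (7.41%, interval 4.07% to 13.1%) lay within the autosomal range of 5.29% to 7.41%, and was 26.2% with the 10 genes included. Among coding genes alone it was 12.2%, above all autosomes (mean 5.27%, highest 6.02%), and up to the last coding gene it was 11.9%.

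The order of strands turned on the repeated genes. Neighbours lay on the same strand in 82 of 135 pairs (60.7%, interval 52.3% to 68.6%), against 51.1% ± 1.28 (SD, n = 8). Among coding genes alone the share was 47.6%, below the autosomal mean of 50.6%, and up to the last coding gene it was 44.0%. Divergent pairs, which start next to each other and point apart, were 26 of 135 (19.3%, interval 13.5% to 26.7%) against 24.5% ± 0.630, but 25.6% among coding genes alone. The 83 coding genes lay 37 on the plus and 46 on the minus strand (44.6% plus, interval 34.4% to 55.3%, which includes the autosomal mean of 49.96%).

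Element sequence reached into exons and upstream of many coding genes of V, though it was denser outside genes. Elements covered 13.1% of the exonic length of these genes, against 73.9% of the sequence outside genes on V. At least 1 bp of an element lay in an exon of 34 of 83 genes (41.0%, interval 31.0% to 51.7%), against 11.3% ± 2.27 (SD, n = 8), and in the 1 kb upstream of 35 genes (42.2%, interval 32.1% to 52.9%) against 14.2% ± 1.88. Within 2 kb the shares were 65.1% and 23.9%. Genes with under 300 bp of coding sequence had an element upstream in 16 of 27 cases, those of at least 1000 bp in 7 of 24. At least 50% of the exonic length was element sequence in 6 genes (7.23%), against 3.33% of autosomal coding genes. Ordered by this share they were MpVg00320 and MpVg01235 (both 100%), MpVg01223 (97.5%), MpVg00380 (70.2%), MpVg00515 (69.4%) and MpVg00390 (59.7%), of which all but MpVg00320, MpVg01223 and MpVg00390 were named after their values were seen.

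MpVg00320 was a single exon of 4802 bp on the plus strand, with 4365 bp coding, lying wholly in a copy of the Copia family TE_00001260. Copia and Gypsy are superfamilies of LTR retrotransposons, elements that are copied by way of RNA and code for proteins of their own. The gene lay within intron 19 of MpVg00310, which was 11.9 kb long and of which 83.6% was element sequence, so that its own bases were part of that cover. MpVg01223 had 5443 of 5581 exonic bp in elements, most of them (4003 bp) in the inner part of an LTR family of no superfamily.

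**Figure D5:**
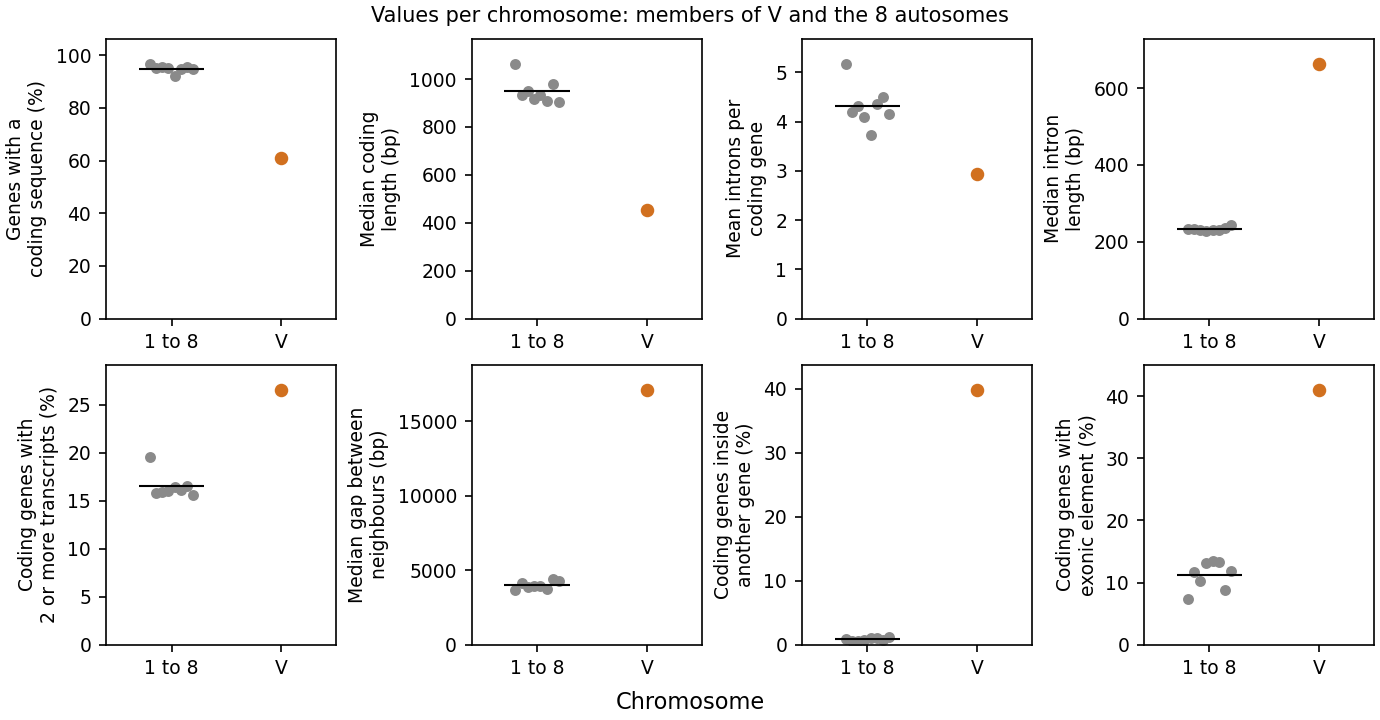
A value for each of chromosomes 1 to 8 (grey points, with their mean as a line) and for V without the 10 long genes (orange) in 8 measures. V lies below all autosomes for the share of coding genes (61.0%), coding length (453 bp) and introns per gene (2.93), and above them for the other 5 measures.

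Copia and Gypsy elements together held most of the element sequence in the introns of these genes. Copia made up 41.8% of the intronic element bp (75.8 of 181 kb, each base counted once within a superfamily) and Gypsy 22.4%. A base annotated to several superfamilies counts in each, so the shares here are not parts of 1 whole. In the introns of the 10 long genes the shares were 12.3% Copia and 54.3% Gypsy, and outside genes on V 4.71% and 55.7%. Intron bases of genes nested in the long genes can count on both sides, so these intron sets are not separate. On the autosomes Copia held from 3.95% to 20.1% of the element bp in introns of coding genes, and Gypsy from 1.69% to 10.5%. As a share of intron length Copia covered 12.4% on V and 0.151% to 0.820% on the autosomes, and Gypsy 6.62% on V and 0.0582% to 0.395%. Both were thus above every autosome by both measures. Copia sequence lay in introns of 14 genes, and MpVg00310, MpVg00710 and MpVg00340 together held 44.4 kb of it. In exons, Copia held 33.97% of the element bp, elements of unknown class 32.2%, LTR elements of no superfamily 22.2% and Gypsy 2.23%. Most of the LTR sequence of no superfamily lay in MpVg01223 (4003 bp). MpVg00320 alone gave 4802 of the 7692 Copia bp, and without it the Copia share was 16.2%, a setting added after its value was seen. Its 4802 bp lie in an intron of MpVg00310, so they also count in the intronic Copia bp.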

How the data were processed

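Both deposited files are GTF annotations of MpTak1 v5.1 revision 2, per the file names; the values used are other than expression values, namely first and last bases in bp as the authors deposited them. The element file names EDTA as its source, per its second column. Read trimming and mapping (Trim Galore and STAR, per the submitters' processing notes) left no values here. A gene was the span of its exons, exons were merged over transcripts, introns were the rest of the span, and coding length was that of the longest coding transcript. Overlapping elements were merged. A gap was measured from the farthest end of all earlier genes. Chromosome length ran to the last feature.

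Chromosomes were the units of the exact permutation test, with Benjamini-Hochberg adjustment over 25 planned and 14 added measures separately. Intervals have a level of 95%. The members, lists and measures were chosen with earlier results of these data known; 14 measures (coding lengths under 300 bp, coding share of exons, intron position, introns with and without elements, differing transcripts, nesting, shared exons, letters in identifiers, coding strand) were added after the models were seen. Named genes are the extremes in span, introns, coding length, transcripts, gaps, overlaps and element bp; genes inside the 10 left out and the genes at the end of V were named after their values were seen. The scripts recovered all models of a simulated annotation. No V gene matched the reference table of the female assembly, so no symbols were used. The work was done in Python 3.11.15 with scipy 1.17.1, pandas 2.3.3 and numpy 2.4.6, and figures in matplotlib 3.10.9.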

Additional observations from a re-analysis of the deposited data

Results flagged for a closer look

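In 39 measures, the highest or lowest of the 9 chromosome values was checked for its gap to the nearest other chromosome, as a share of the whole range, against Dixon's critical value for 9 values. Chance alone would flag about 1 in 20 groups if all 9 values had equal counting error. V rests on far fewer genes than any autosome, so counting error alone would flag it more often. The measures also overlap with each other, so the number of flags is no count of separate findings. V stood apart in 30 measures and chromosome 1 in 1. Each value below is that gap share.

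For number and spacing, V stood apart in genes per Mb (0.918), coding genes per Mb (0.904), the share of genes with a coding sequence (0.875), the median gap (0.945), same-strand neighbours (0.691), divergent neighbours (0.714), the plus-strand share of coding genes (0.525), identifiers ending in a letter (0.884) and the span of genes without coding sequence (0.919). For the coding genes it did so in median coding length (0.744), coding lengths under 300 bp (0.813), the coding share of exons (0.808), 3' untranslated parts (0.528), introns in the 5' untranslated part (0.633), genes with several transcripts (0.642) and transcripts per gene (0.551). For introns the values were 0.963 for the median length, 0.977 for the share of at least 1 kb, 0.882 for the exon share of the span, 0.791 for the longest intron nearest the start, 0.982 for the length of the other introns, 0.915 for element cover, 0.883 for introns with elements and 0.850 for the length of introns free of them. The median number of introns took only 3 values over the chromosomes, and both V (1) and chromosome 1 (3) were flagged at 0.5. The median of V was 2, within the autosomal range, over all genes of V and outside the spans of the 10 genes. It was also 2 among genes with a coding length of at least 300 bp and among those with under 50% of exonic bp in elements. For overlaps the values were 0.982 for nesting, 0.878 for exons shared on the same strand and 0.501 for exons shared on the other strand. For elements they were 0.818 in exons and 0.830 upstream. The plus-strand share and the share on the other strand rest on 83 genes, and the divergent share on 135 pairs. The intervals of all of these on V include the autosomal means.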

How the results depend on the processing

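The 39 measures were recomputed in 181 ways, 81 planned and 100 added after the data were seen, and V kept its direction from the autosomal mean in 172. Direction is all that these can show, since no p could pass the threshold. The 9 reversals were these. Up to the last coding gene the share of coding genes was 97.6% (autosomal mean 94.9%), same-strand neighbours 44.0% and divergent neighbours 27.4%. That cut could only raise the share of coding genes and was not made on the autosomes. Among coding genes alone the pair shares were 47.6% and 25.6%. With coding lengths of at least 300 bp the median exonic length was 2248.5 bp. With all genes of V, coding genes without an intron were 22.6% and those sharing exons with the other strand 6.45%. Outside the spans of the 10 genes, transcripts differed in coding parts in 58.8% of genes, below the autosomal mean of 60.5%. In 19 of the 181, V moved into or out of the autosomal range, and in 30 its value moved by over 1.5 times. Of these 30, 6 were the median gap, 5 the median number of introns and 3 the overlap of neighbours, and the rest were spread over other measures. No paired analysis was possible because no file held a value of a library. Depth is unknown and bears on no value here.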
